A study of Mus musculus with 21 samples.

Results

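Fibroblasts lay down the fibrous matrix of connective tissue, and 10 genes of that matrix were followed here as a gauge of non-neural cells in embryonic stem cell cultures that were directed towards motor neurons. The genes were Col1a1, Col1a2, Col3a1, Col5a1, Dcn, Lum, Fn1, Postn, Thbs1 and Twist1. They were chosen by name, as genes that fibroblasts are known to express, and all 10 of 10 were found among the 55400 genes of the count and FPKM tables. These genes and the gene lists used below were chosen with earlier results of these data known. FPKM is the number of reads of a gene per kilobase of its exons and per 1000000 counted reads, so it can be set side by side between genes.

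The 21 libraries fell into 7 groups of 3, all from wild-type (WT) C57BL/6 mouse embryonic stem cells that had been kept on a layer of mouse embryonic fibroblasts arrested with Mitomycin C. Embryoid bodies formed in hanging drops and received 1 µM retinoic acid (RA) and 0.5 µM of the Sonic Hedgehog agonist SAG on day 2. By the protocol they were given 5 µM of the Notch pathway inhibitor DAPT from day 4, which leads to hypaxial motor column neurons. On day 5 the medium was changed to one with DAPT but without RA and SAG. Cultures collected on day 6 had therefore spent their last day in another medium, and medium and stage cannot be told apart there. Time in DAPT also grew with stage from day 4 on, so DAPT exposure and stage cannot be told apart either. Untreated cultures were collected on day 4 (D4), 8 h later (D4H8), on day 5 (D5) and on day 6 (D6), and GSKJ4, an inhibitor of the Kdm6 histone demethylases, was given for the day before collection in 3 more groups, D4H8 GSKJ4, D5 GSKJ4 and D6 GSKJ4. Every group is a whole culture of 1 cell line with no sorting step, so a library holds whatever cells the embryoid bodies held, and fewer cells of a type cannot be told apart from less RNA per cell. The label gives the cells as motor neurons, and the 8 motor neuron genes of a fixed list (Mnx1, Isl1, Isl2, Lhx3, Chat, Slc18a3, Slc5a7, Prph) summed to between 9.49 and 24.2 FPKM at D4 and between 611.6 and 671.7 FPKM at D6.

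Collagen fibres are built from type I, type III and type V collagen chains. Type I is assembled from the products of Col1a1 and Col1a2, type III from Col3a1 alone, and type V, which sets fibre diameter, contains the Col5a1 chain. Decorin (Dcn) and lumican (Lum) are small leucine-rich proteoglycans that coat the fibres, fibronectin (Fn1) links them to integrins on the cell surface, and periostin (Postn) and thrombospondin 1 (Thbs1) are matricellular proteins that modulate adhesion. Twist1 is a basic helix-loop-helix transcription factor of mesenchyme and cranial neural crest that binds E-box motifs. Dcn is not restricted to fibroblasts, and Fn1 is also made by many epithelial and early embryonic cells.

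The members are spread over the genome. On GRCm38, Dcn lies at chr10:97479609-97518143 and Lum at chr10:97565128-97572703, both on the plus strand with 47.0 kb between them. Col3a1 is at chr1:45311538-45349706 on the plus strand and Fn1 at chr1:71585520-71653200 on the minus strand. Col1a1 is at chr11:94936224-94953042, Col1a2 at chr6:4504814-4541544, Col5a1 at chr2:27886425-28039514, Thbs1 at chr2:118111876-118127133, Postn at chr3:54361109-54391037 and Twist1 at chr12:33957671-33959829, all on the plus strand. Opposite-strand gene models overlap Col5a1, Fn1 and Thbs1, and the strand used in counting is not given in the sources used here. Their mean levels over the 21 libraries stayed at or under 0.255 FPKM at Col5a1, 0.249 FPKM at Fn1 and 0.0248 FPKM at Thbs1, against 4.28, 30.9 and 3.41 FPKM for those 3 members themselves.

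The promoter table used here (RefSeq, GRCm38.p6, 250 bases before to 50 after the start) held entries for 5 of the 10 members. Those of Col3a1 (chr1:45311288-45311587, plus strand) and Twist1 (chr12:33957421-33957720, plus strand) are shown because both genes rose by D6. That of Col1a2 (chr6:4505368-4505667, plus strand) is shown beside them as a collagen gene that did not pass the test in any comparison. Its RefSeq start lies 804 bases inside the GENCODE gene model. Capitals mark the TATA box (TATAAA), the CCAAT box (CCAAT) and the E-box (CANNTG), each searched on both strands.
Col3a1: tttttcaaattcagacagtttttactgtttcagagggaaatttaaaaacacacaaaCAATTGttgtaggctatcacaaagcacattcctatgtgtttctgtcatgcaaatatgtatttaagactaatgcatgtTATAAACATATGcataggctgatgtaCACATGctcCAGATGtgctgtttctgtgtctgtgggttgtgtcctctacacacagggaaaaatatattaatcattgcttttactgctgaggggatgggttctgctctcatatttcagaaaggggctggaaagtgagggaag
Twist1: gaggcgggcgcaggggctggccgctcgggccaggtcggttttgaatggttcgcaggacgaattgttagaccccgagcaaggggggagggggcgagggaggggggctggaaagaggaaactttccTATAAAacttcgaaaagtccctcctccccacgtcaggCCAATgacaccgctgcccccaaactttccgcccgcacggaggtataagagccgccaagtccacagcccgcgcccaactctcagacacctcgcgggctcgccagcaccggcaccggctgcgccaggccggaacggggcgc
Col1a2: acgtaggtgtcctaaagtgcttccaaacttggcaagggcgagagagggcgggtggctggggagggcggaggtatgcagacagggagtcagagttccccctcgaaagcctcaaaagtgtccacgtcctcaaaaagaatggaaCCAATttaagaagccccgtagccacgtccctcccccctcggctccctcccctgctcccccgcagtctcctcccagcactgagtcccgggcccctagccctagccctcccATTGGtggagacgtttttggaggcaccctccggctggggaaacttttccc
The Col3a1 promoter held 1 TATA box, whose first base lies at -117 from the start, and 4 E-boxes at -194, -111, -91 and -82. The E-box at -111 follows the TATA box directly, so the capitals of both run together there. The Twist1 promoter held 1 TATA box at -126, 1 CCAAT box at -89 and 0 E-boxes, and the Col1a2 promoter held 2 CCAAT boxes, at -109 and, on the minus strand, at 1. Of the 32851 promoters in the table, 13.6% held a TATA box, 37.4% a CCAAT box and 72.3% an E-box in the same 300 bases. The entries of Col5a1 and Postn are not shown. GC content was 37.7% at Col3a1, 66.0% at Twist1 and 61.0% at Col1a2. These matches describe the letters and do not show that a factor binds there.

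Total counts ran from 14982115 to 34383842 per library (median 16238435). D4H8 replicate 1 was the deepest library, and D5 GSKJ4 replicate 2 had 39381 genes at 0 against 29339 to 32805 in the others. Summed over the 10 members, the reads made up 229.9 to 875.9 per 1000000 counted reads (CPM) in a library, with 95% Wilson intervals of 1.61% to 3.21% of the value to either side, which cover counting error only. The study describes the 3 replicates of a stage as biologically independent, and the p-values measure the spread between these libraries.

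Fn1 was by far the most abundant member. Its FPKM was 20.95, 26.38 and 42.60 in the 3 D4 libraries (replicates 1 to 3) and 12.42, 22.98 and 34.39 in the 3 D6 libraries. Its mean over all libraries was 30.9 FPKM, while the means of the other members ran from 0.27 for Lum to 4.28 for Col5a1. Fn1 alone supplied between 45.8% and 80.4% of the members' reads in a library, so the summed gauge mostly read fibronectin. Without Fn1, the other 9 genes summed to between 87.4 and 294.3 CPM. Lum and Postn were the lowest members. Lum had 3 counts or fewer in 6 of the 21 libraries and never exceeded 0.70 FPKM, and Postn never exceeded 0.64 FPKM.

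**Figure D1:**
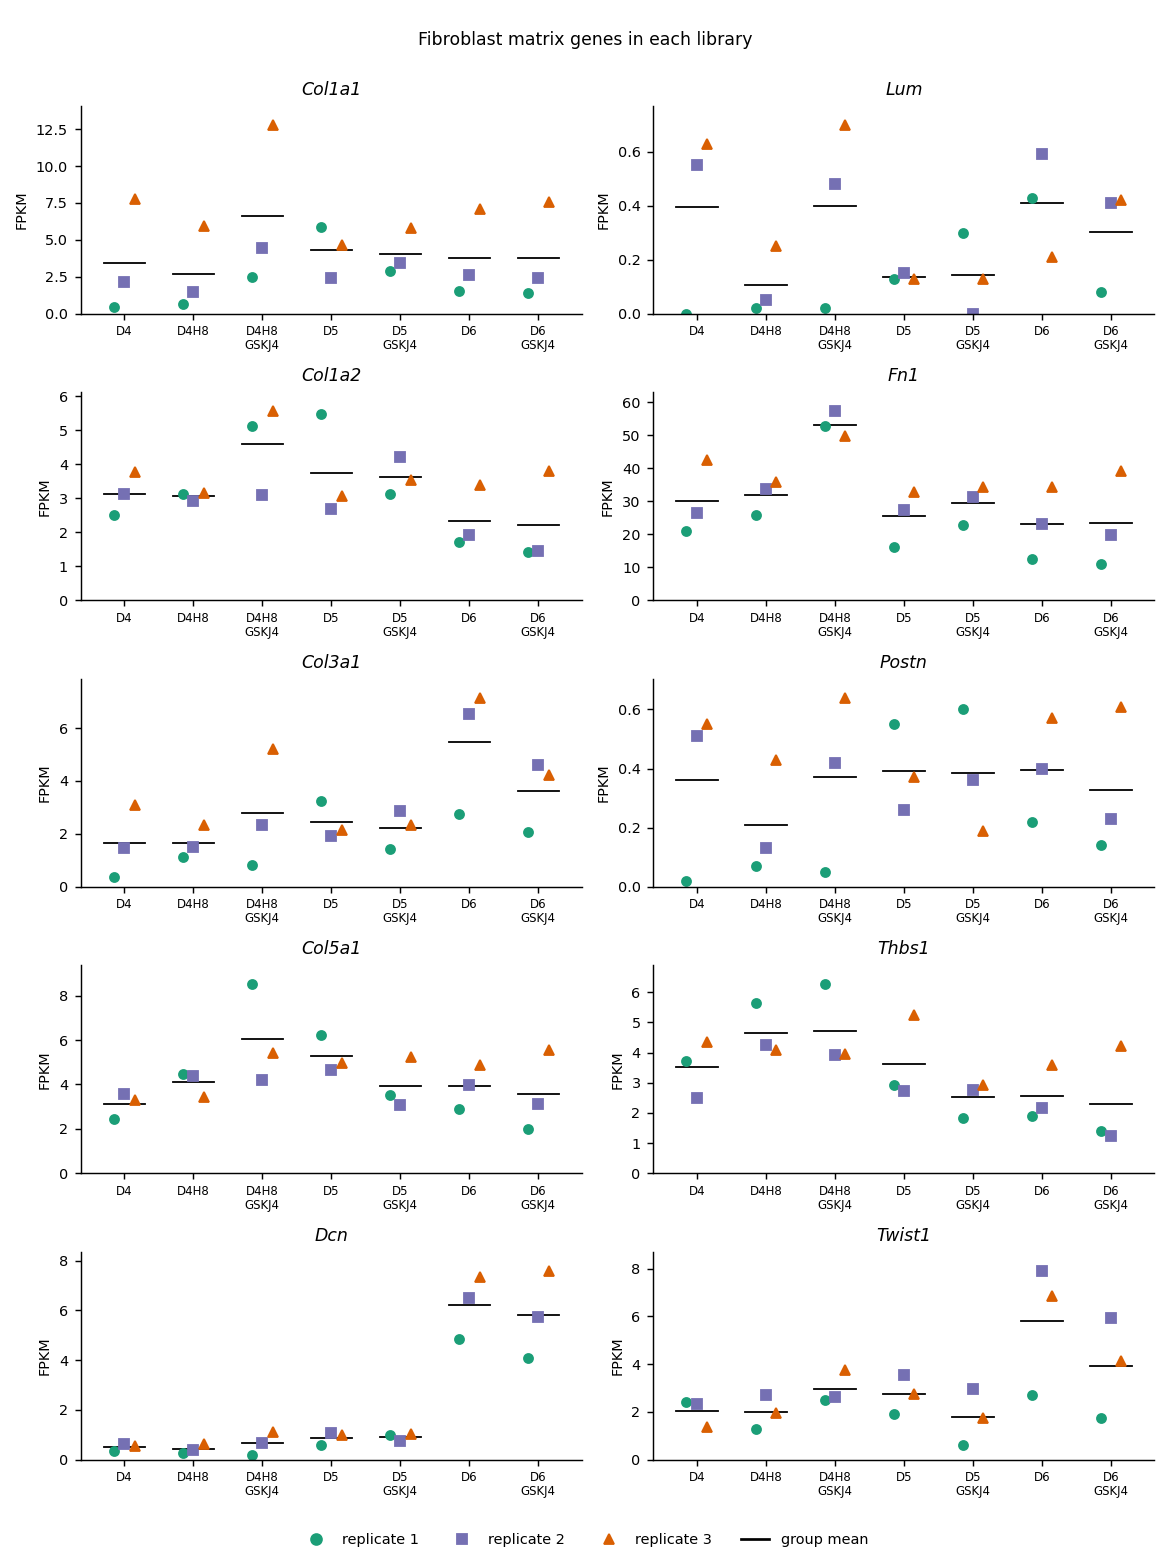
FPKM (y axis, linear from 0, own scale per gene) of the 10 fibroblast matrix genes in each of the 21 libraries, by group (x axis); symbols mark replicates 1, 2 and 3 and lines the group means. Dcn stands at 4.85 to 7.34 FPKM in the 3 untreated D6 libraries against 0.27 to 1.07 FPKM in the untreated libraries before D6, while Col1a1 ranges from 0.48 to 7.74 FPKM within D4 alone.

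From D4 to D6, Dcn, Col3a1 and Twist1 rose, and the other 7 members did not pass the test in either direction. The comparison asks how the matrix genes move while progenitors become motor neurons. Fold changes here are log2 values from a quasi-likelihood fit in edgeR to the 12 untreated libraries, p-values were adjusted by Benjamini-Hochberg over all 17519 tested genes, and an adjusted p under 0.05 was called. Between D4 and D6, 32.9% of all tested genes were called higher and 31.0% lower, so 3 higher and 0 lower of 10 members is a share close to the background for rises. The members' median log2 fold change was 0.25, beside -0.04 over all tested genes.

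Dcn had the largest fitted rise. Its FPKM was 0.35, 0.62 and 0.55 at D4, 0.27, 0.40 and 0.63 at D4H8, 0.60, 1.07 and 0.98 at D5 and 4.85, 6.48 and 7.34 at D6. The lowest D6 library lay above every library of the earlier stages. The change from D4 to D6 was 3.70 on the log2 scale (SE 0.306, n = 3 against 3 in the edgeR fit, adjusted p = 1.7e-07), a 13.0-fold rise, and from D5 to D6 it was 2.93 (SE 0.293, adjusted p = 9.4e-06). Dcn was also called in the step from D4H8 to D5, at 1.07 (SE 0.303, adjusted p = 0.0167), although these groups overlapped. That smaller step lost its call when D4H8 replicate 1, D4H8 replicate 2, D5 replicate 2 or D5 replicate 3 was left out, with adjusted p from 0.0576 to 0.078, and in the fit over all 21 libraries (adjusted p = 0.0793).

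Col3a1, the type III collagen gene, had FPKM values of 0.35, 1.47 and 3.09 at D4 and of 2.75, 6.53 and 7.15 at D6. The highest D4 library lay above the lowest D6 library, so the groups overlapped. The fitted change was 1.85 (SE 0.532, edgeR adjusted p = 0.00753), or 3.62-fold, and it was called in each of the 12 refits that left out 1 library. Between D5 and D6 the change was 1.26 (SE 0.521, adjusted p = 0.0782) and did not pass. That step passed when D4 replicate 1, D4 replicate 3 or D6 replicate 1 was left out, with adjusted p of 0.0183, 0.0408 and 0.0454.

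Twist1 was measured at 2.43, 2.34 and 1.36 FPKM at D4 and at 2.71, 7.91 and 6.86 FPKM at D6. The groups did not overlap, but D6 replicate 1 lay only just above the D4 libraries. The change was 1.54 (SE 0.398, edgeR adjusted p = 0.00389), or 2.90-fold. From D5 to D6 it was 1.19 (SE 0.393, adjusted p = 0.0316). This step lost its call without D5 replicate 1, D5 replicate 3, D6 replicate 2 or D6 replicate 3 (adjusted p from 0.0786 to 0.13) and in the fit over all 21 libraries (adjusted p = 0.1).

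The other members did not pass the test from D4 to D6. Col1a1 gave 0.23 from D4 to D6 with an SE of 0.837, the widest but for Lum, and its D4 libraries alone stood at 0.48, 2.16 and 7.74 FPKM. Col1a2 gave -0.36 (SE 0.272) and Col5a1 0.40 (SE 0.190), with edgeR adjusted p of 0.265 and 0.0793. Col1a2 passed, lower, without D6 replicate 3 (-0.69, adjusted p = 0.0387), and Col5a1 passed, higher, without D6 replicate 1 (0.55, adjusted p = 0.0221). Fn1 was at -0.30 (SE 0.313), Thbs1 at -0.41 (SE 0.291), Postn at 0.26 (SE 0.771) and Lum at 0.21 (SE 0.873), with adjusted p from 0.233 to 0.845. Lum is the next gene after Dcn on chromosome 10, and its 0.43, 0.59 and 0.21 FPKM at D6 overlapped its 0.00, 0.55 and 0.63 FPKM at D4. Kera, another small leucine-rich proteoglycan gene that follows Lum, reached a mean of 0.01 FPKM at most in any group. Next to Col3a1, Col5a2, which encodes another type V chain, gave 0.30 (SE 0.430, adjusted p = 0.556).

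Of the single steps, the one from D4H8 to D5 called 1 of 10 members (Dcn), where 17.2% of tested genes were higher and 10.5% lower. The step from D5 to D6 called 2 (Dcn and Twist1), both higher, where 19.2% were higher and 15.1% lower. The first 8 h, from D4 to D4H8, called 0 of 10 in edgeR and 0 in DESeq2, with 0 members at an unadjusted p under 0.05 and 4.38% of all tested genes called. Over those 8 h the members ran from -2.02 for Lum (SE 1.006) to 0.36 for Col5a1 (SE 0.189), and Col3a1 stood at -0.004. Lum had an adjusted p of 0.338, and its D4 libraries alone ran from 0.00 to 0.63 FPKM. For D4H8 to D5 the remaining members ran from -0.37 for Thbs1 (SE 0.287) to 0.99 for Postn (SE 0.798), and for D5 to D6 from -0.59 for Col1a2 (SE 0.272, edgeR adjusted p = 0.113) to 1.68 for Lum (SE 0.975). Col1a2 passed, lower, in that last step without D5 replicate 2 (-0.81, adjusted p = 0.045) or D6 replicate 3 (-0.92, adjusted p = 0.0191).

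**Figure D2:**
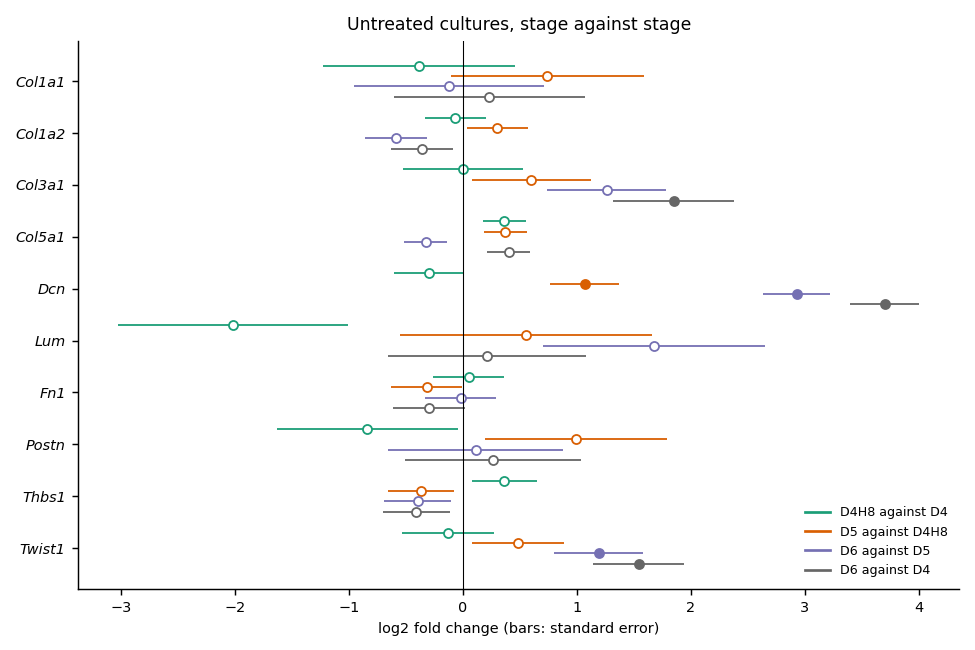
Log2 fold changes (x axis) of the 10 members (y axis) between untreated stages, with standard errors as bars; filled points passed an edgeR adjusted p of 0.05 and open points did not. The filled points belong to Dcn (3 comparisons), Twist1 (2) and Col3a1 (1), all on the positive side.

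Other matrix genes split in both directions over the same interval, in which 32.9% of all tested genes were called higher and 31.0% lower. Of 17 tested genes of a fixed list of fibrillar and microfibrillar matrix, 3 rose and 4 fell from D4 to D6, with a median of -0.08. Vcan, a large chondroitin sulfate proteoglycan that neural tissue also makes, rose from 21.2 ± 5.02 to 33.3 ± 3.54 FPKM (SD, n = 3), and Sparc, a collagen-binding glycoprotein, fell from 30.5 ± 2.91 to 18.6 ± 6.99 FPKM (log2 changes 0.70 and -0.67, edgeR adjusted p = 0.0176 and 0.0143). Fbln1 and Fbn1, components of elastic and microfibrillar networks, fell by 1.45 and 0.56. Of 15 genes for collagen processing and crosslinking, 4 rose and 5 fell (median 0.09). Serpinh1, the collagen chaperone, was at 180.4 ± 21.1 FPKM at D4 and 107.2 ± 23.2 FPKM at D6 (-0.70, edgeR adjusted p = 0.00217), and Bmp1, the procollagen C-proteinase, went from 5.11 ± 0.941 to 11.2 ± 0.774 FPKM (1.21, edgeR adjusted p = 3.4e-06). Crtap fell by 1.29 and P3h1 by 0.47. Both encode parts of the collagen prolyl 3-hydroxylation complex.

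Of the 10 basement membrane genes, 2 rose and 5 fell (median -0.53), beside 32.9% higher and 31.0% lower among all tested genes. Agrn, which organises synapses at the neuromuscular junction, rose by 1.26 on the log2 scale, while Lamc1, Hspg2 and Nid2 changed by -0.77, -1.51 and -1.39. Of 14 matrix receptors 2 rose and 6 fell (median -0.16), with Sdc1 at -1.0, Sdc4 at -1.05, Itga5, the fibronectin receptor chain, at -1.34 and Cd47, a thrombospondin receptor, at 1.43. Of 9 tested matrix-remodelling enzymes and inhibitors 1 rose and 4 fell (median -0.43), with Timp2 at 0.92, Timp1 at -1.20, Adamts1 at -0.72 and Plau at -1.15. Of 10 TGF-beta and Hippo-responsive matricellular genes 3 rose and 2 fell (median 0.13), with Tgfb2 at 2.78, Tgfbi at 1.68, Ltbp1 at -0.88 and Ccn1 at -2.50.

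Markers of feeder fibroblasts differed among themselves in level and direction. A list of 14 surface and nuclear markers of feeder fibroblasts summed to between 10.7 and 15.7 FPKM at D4 and between 6.92 and 11.3 FPKM at D6. Thy1, S100a4, Fap, Prrx1, Twist2 and Meox2 stayed under 1 FPKM in all 21 libraries. Prrx2, a homeobox gene of mesenchyme, held most of that sum at D4, and it fell from 8.48 ± 1.98 to 1.06 ± 0.428 FPKM (SD, n = 3; -2.95, edgeR adjusted p = 1.9e-06) as Dcn rose. Pdgfra, Snai2, Tcf21 and Cd248 rose, and 1 marker (Prrx2) fell, among the 11 tested. Among all tested genes 32.9% were called higher and 31.0% lower. Pdgfra, a receptor of mesenchymal and oligodendrocyte precursors, went from 0.363 ± 0.0862 to 1.65 ± 0.717 FPKM (2.25, edgeR adjusted p = 2.0e-04).

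Genes of other cell types also passed the test over the same days, where 32.9% of all tested genes were called higher and 31.0% lower. A list count near these shares does not set its cell type apart. Of 6 tested floor plate genes 5 rose, with Shh from 0.253 ± 0.155 to 19.4 ± 4.41 FPKM and Spon1 from 2.17 ± 0.735 to 16.9 ± 3.43 FPKM (SD, n = 3), while Lmx1a stayed under 1 FPKM. The sixth, Foxa2, a floor plate transcription factor named here after its values were seen, stood at 14.8 ± 2.67 FPKM at D4 and 15.2 ± 2.86 FPKM at D6 (0.09, edgeR adjusted p = 0.702). Of 6 epithelial genes 4 fell (Krt18, Cdh1, Cldn6, Epcam), and the sum of that list went from 265.1 to 305.7 FPKM at D4 to 52.1 to 172.0 FPKM at D6. Of 8 smooth muscle and pericyte genes 4 fell (Myl9, Tagln, Des, Cnn1) and 1 rose (Rgs5), and that list summed to between 25.1 and 65.6 FPKM at D4 and between 7.51 and 28.2 FPKM at D6. Among 6 tested endothelial genes 3 rose (Cdh5, Esam, Kdr), while Pecam1 (-0.79), Tie1 (-1.12) and Tek (-0.63) lay below 0 without a call. The list summed to between 1.70 and 3.67 FPKM at D4 and between 2.37 and 4.92 FPKM at D6. Of 6 tested paraxial mesoderm genes 1 rose (Pax9) and 2 fell (Meox1, Foxc2). Of 6 tested endoderm genes 3 rose (Cxcr4, Foxa1, Afp) and 2 fell (Gata6, Sox17). Of the genes named here as risen, Rgs5, Esam, Kdr, Pax9 and Afp stayed under 1 FPKM in all 21 libraries. In the neural crest and Schwann cell list, Ngfr and Foxd3 rose and Erbb3 fell, and Sox10, Foxd3 and Tfap2a stayed under 1 FPKM. The 8 pan-neuronal and the 8 motor neuron genes all rose, and 6 of 8 neural progenitor genes fell. Which of these cells held the Dcn, Col3a1 and Twist1 RNA was not tested.

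Across the 7 groups, neighbouring group means lay close together for most members. Ordered by mean FPKM, Col1a1, Col1a2, Col3a1, Lum, Postn and Twist1 had no pair of neighbouring groups whose means differed by more than the larger of their SDs (0 of 6 steps). Dcn had 1 such step, from D6 GSKJ4 (5.80 ± 1.75 FPKM) down to D5 GSKJ4 (0.93 ± 0.139 FPKM), below which all earlier groups lay. Fn1 had 1, from D4H8 GSKJ4 (53.3 ± 3.82 FPKM) down to D4H8 (31.8 ± 5.20 FPKM). Col5a1 had 1, from D5 to D4H8 (5.28 against 4.09 FPKM), and Thbs1 had 1, from D4 to D6 (3.52 against 2.55 FPKM). These steps compare neighbours only and say nothing of groups farther apart. Col3a1 and Twist1 had their highest means at D6 and had passed the test from D4 to D6.

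Much of the spread lay between libraries of the same group, and part of it followed the replicate numbers. Summed over the 10 members, the library numbered 3 was the highest and the library numbered 1 the lowest in 7 of 7 groups. Without Fn1, number 3 was the highest in 6 of 7 groups and number 1 the lowest in 5 of 7. The exceptions were D5, where number 1 was the highest at 221.5 CPM, and D4H8 GSKJ4, where number 2 was the lowest at 163.7 CPM. At D6 the members summed to 275.4, 476.3 and 683.6 CPM in replicates 1 to 3, and at D6 GSKJ4 to 229.9, 389.6 and 725.9 CPM. At D4 they summed to 332.2, 434.5 and 692.1 CPM. The group means ran from 448.5 CPM (D6 GSKJ4) to 843.5 CPM (D4H8 GSKJ4), a span narrower than that between the lowest and highest library of D6 or of D6 GSKJ4.

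**Figure D3:**
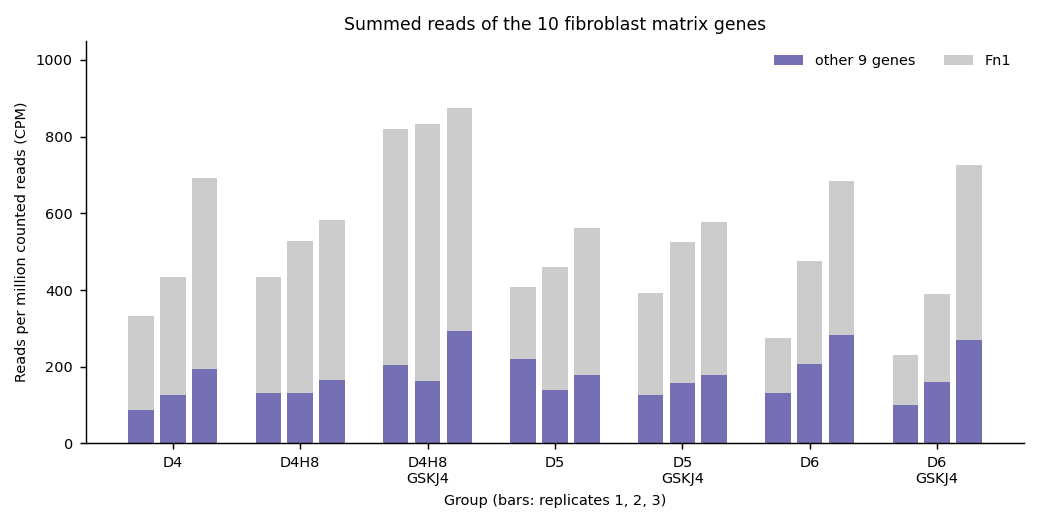
Summed reads of the 10 members per 1000000 counted reads (y axis, from 0) in each library, by group (x axis; bars are replicates 1, 2 and 3 from left to right), with Fn1 in grey and the other 9 genes in colour. The library numbered 3 is the tallest in all 7 groups, and the 3 D4H8 GSKJ4 libraries (820.9 to 875.9 CPM) stand above all others.

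Col1a1 showed the pattern most plainly. Within D4 its FPKM ran over a 16.1-fold range (72 to 825 counts), within D4H8 over a 9.43-fold range, within D6 over a 4.59-fold range and within D6 GSKJ4 over a 5.35-fold range. The library numbered 3 was highest in 6 of 7 groups and the one numbered 1 lowest in 6 of 7, the exception in both cases being D5, where replicate 1 led with 5.88 FPKM and replicate 2 was lowest with 2.44 FPKM. When the variance of log2 CPM over the 21 libraries was split, 19.6% of that of Col1a1 lay between groups and 56.2% between replicate numbers. The median over all 18349 tested genes was 65.9% between groups and 5.45% between numbers, and the number share of Col1a1 was above that of 99.6% of them. For Fn1 the number share was 31.3%, for Postn 28.7%, for Col3a1 28.0% and for Twist1 25.6%, against 4.20% for Dcn, 4.09% for Col5a1, 12.2% for Col1a2, 14.3% for Thbs1 and 17.4% for Lum. Dcn stood at the other end, with 92.0% of its variance between groups. The members' medians were 47.2% between groups, 21.5% between numbers and 29.9% in the remainder. The remainder exceeded the number share for Lum (59.1%), Postn (58.5%), Col5a1 (50.6%), Col1a2 (39.2%) and Thbs1 (33.6%). Twist1 differed from the collagens in that the library numbered 2 was highest in 5 of 7 groups.

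**Figure D4:**
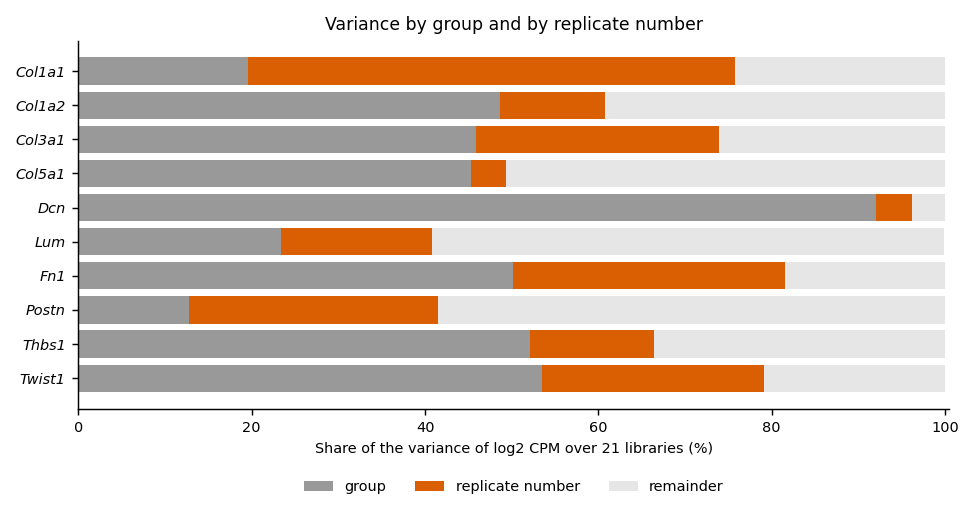
Share of the variance of log2 CPM over the 21 libraries (x axis, percent) that lay between the 7 groups, between the 3 replicate numbers and in the remainder, for each member (y axis). Replicate number takes 56.2% for Col1a1 and 4.20% for Dcn.

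With the group means taken out, the members fell into pairs of unequal likeness. Over the 21 libraries and 45 pairs of members, Pearson's r of the deviations in log2 CPM had a median of 0.33 (range -0.34 to 0.84), and 16 pairs exceeded 0.5. These values describe the same 21 libraries and share their depth and culture. Col1a1 went with Col3a1 (r = 0.84, rho = 0.83, and r = 0.81 without the 2 libraries farthest from the median), with Postn (r = 0.81, and 0.78 without them) and with Lum (0.63 and 0.55). Col3a1 also went with Postn (0.84 and 0.68), and Lum with Postn (0.82 and 0.66) and with Dcn (0.75 and 0.67). Thbs1 had r between -0.34 (Lum) and -0.10 (Col3a1) towards Lum, Dcn, Postn and Col3a1. Without the 2 libraries farthest from the median, only that towards Lum was below 0 (-0.24), and Dcn and Postn stood at 0.05 and Col3a1 at 0.10. Towards Fn1, Thbs1 had r = 0.63, and 0.46 without them. Twist1 had no pair above 0.44 (Fn1, and 0.36 without them).

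The mean deviation of the 10 members was set against 13668 other genes with a mean of at least 1 FPKM. The closest was Egln3, a prolyl hydroxylase that marks hypoxia-inducible factor for degradation (r = 0.91, rho = 0.84 over 21 libraries, r = 0.89 without the 2 most distant libraries). Slc2a3, a glucose transporter, and Txnip, a thioredoxin-binding protein, followed (both r = 0.88), then Ak4, a mitochondrial adenylate kinase, and Primpol, a primase-polymerase (both r = 0.87). Cmklr1 (0.85), Bhlhe40 (0.84), Parm1 (0.83) and Sparcl1 (0.83) were also among the 10 closest. Among the fixed lists, the mean deviation of the members followed that of the other fibrillar and microfibrillar matrix genes (19 genes, r = 0.91 over 21 libraries and 0.91 without the 2 libraries farthest from the median). For the feeder fibroblast markers r was 0.70 over 21 libraries and 0.63 without those 2. For collagen processing the same values were 0.65 and 0.78, for matrix receptors 0.58 and 0.72, for basement membrane 0.55 and 0.75 and for remodelling enzymes 0.54 and 0.61. The order of these 5 lists therefore rested on 2 libraries. Among the other lists, paraxial mesoderm stood at 0.53 and 0.44, neural crest at 0.41 and 0.40, epithelium at 0.38 and 0.64, endothelium at 0.36 and 0.46, neural progenitors at 0.28 and 0.44 and floor plate at 0.27 and 0.30. The TGF-beta and Hippo-responsive genes stood at 0.23 and 0.52, endoderm at 0.15 and 0.44, smooth muscle at 0.03 and 0.31 and motor neurons at 0.03 and -0.10. Towards the pan-neuronal genes r was -0.54 and -0.65. What the replicate numbers stand for is not given in the sources used here, and the part of any other gene or cell type in this spread was not tested.

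Gene by gene, with the group means left in, the closest expressed gene to Dcn over the 21 libraries was Gria4, an AMPA receptor subunit (r = 0.95, rho = 0.83). It was Col6a1 for Col1a1 (r = 0.85), Mcam for Col1a2 (0.86), Sgk1 for Col3a1 (0.80), Sertad1 for Col5a1 (0.82), Trim25 for Fn1 (0.93), Surf4 for Thbs1 (0.83), Dusp6 for Twist1 (0.85), and Sparcl1 for both Lum (0.81) and Postn (0.78).

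GSKJ4 was compared with the untreated cultures of the same stage, which asks whether blocking the demethylases shifts the matrix genes. At D4H8 the drug went with higher values for nearly all members, but 0 of the 9 tested passed edgeR's test, where 2.11% of all tested genes were called higher and 1.85% lower. At an unadjusted p under 0.05 there were 2, and DESeq2 called 1. The members' log2 fold changes were above 0 for 8 of 9 and had a median of 0.60, beside 0.02 over all 16269 tested genes. The members summed to 433.4, 527.2 and 583.6 CPM without and to 820.9, 833.8 and 875.9 CPM with GSKJ4, groups that did not overlap. Without Fn1 the groups overlapped, at 130.6, 132.0 and 166.2 CPM without and 204.9, 163.7 and 294.3 CPM with GSKJ4. Lum was too low in these 6 libraries to be tested.

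Fn1 came closest to a call. Its FPKM was 25.91, 33.82 and 35.72 in the D4H8 libraries and 52.71, 57.35 and 49.77 in the D4H8 GSKJ4 libraries. The groups did not overlap, and the treated libraries were the 3 highest of all 21. The change was 0.72 (SE 0.194, or 1.65-fold) with an edgeR adjusted p of 0.0673, and DESeq2 gave an adjusted p of 0.019. It was called when D4H8 GSKJ4 replicate 2 was left out (0.60, adjusted p = 0.0446).

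Col1a1 had the largest fitted change among the members at this stage, 1.27, with an SE of 0.766 and an edgeR adjusted p of 0.331. Its 2.50, 4.46 and 12.81 FPKM under GSKJ4 overlapped the 0.63, 1.49 and 5.94 FPKM without it. Each treated library was above the untreated library of its number. Col1a2 (0.53, SE 0.207), Col5a1 (0.51, SE 0.255), Twist1 (0.54, SE 0.357), Dcn (0.60, SE 0.560), Col3a1 (0.73, SE 0.540) and Postn (0.84, SE 0.854) lay in the same direction with adjusted p from 0.149 to 0.567. Col1a2 was called without D4H8 GSKJ4 replicate 2 (0.71, adjusted p = 0.0199). Thbs1 was at -0.03 (SE 0.250). With the replicate number as a block, Col1a1 passed at 1.51 (SE 0.250, edgeR adjusted p = 0.00099) and Fn1 at 0.72 (edgeR adjusted p = 0.0426). That fit called 2274 genes in all against 644 without the block. The same-numbered D4H8 libraries had correlations over genes of 0.491, 0.0899 and 0.299, and they were not taken as pairs.

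Around them, the basement membrane list moved at D4H8, with 5 of 10 genes higher and 0 lower (median 0.80). Among all tested genes 2.11% were called higher and 1.85% lower. Hspg2 stood at 28.0 ± 0.985 FPKM without and 63.3 ± 25.2 FPKM with GSKJ4, Nid2 at 24.4 ± 7.69 and 56.6 ± 6.37 FPKM, Lama5 at 23.9 ± 3.82 and 48.6 ± 11.8 FPKM and Lamb1 at 12.9 ± 1.96 and 25.7 ± 1.24 FPKM (SD, n = 3; edgeR adjusted p from 0.0246 to 0.0459). In the fibrillar list 1 of 18 tested genes was higher (Ogn, a small leucine-rich proteoglycan, 0.0900 ± 0.0693 to 0.8 ± 0.296 FPKM), and in collagen processing 1 of 15 was lower (P4ha1, a collagen prolyl 4-hydroxylase subunit, 23.8 ± 5.88 to 11.5 ± 3.75 FPKM). Cd36 and Ddr2, a collagen receptor, were higher among 14 matrix receptors, and Plau among 9 remodelling enzymes. In 8 lists (TGF-beta and Hippo-responsive, feeder fibroblast, epithelial, endothelial, paraxial mesoderm, endoderm, floor plate and pan-neuronal genes) edgeR called 0 of 55 tested genes, while 23 had an unadjusted p under 0.05 and DESeq2 called 14, of which 4 were among the 6 epithelial genes. Cspg4, in the pericyte list, and Erbb3, in the crest list, were higher. Cspg4 and Ddr2 stayed under 1 FPKM in all 21 libraries. Of 8 progenitor genes 4 were lower (Olig2, Sox3, Hes5, Fabp7), and of 7 tested motor neuron genes 3 (Isl1, Chat, Lhx3). The sum of the feeder markers ran from 9.89 to 12.2 FPKM without GSKJ4 and from 14.3 to 22.2 FPKM with it, and that of the epithelial list from 278.5 to 288.8 and from 371.7 to 728.0 FPKM. Their part in the members' levels was not tested.

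At D5, GSKJ4 called 0 of the 9 members tested in edgeR and 0 in DESeq2, with 0 at an unadjusted p under 0.05, where 0.00613% of tested genes (1 of 16309) was called. The count of members was also 0 in each of the 6 refits without 1 library, that without D5 GSKJ4 replicate 2 included. The members ran from -0.68 for Twist1 (SE 0.582) to 0.17 for Fn1 (SE 0.238). Fn1 stood at 16.04, 27.46 and 32.75 FPKM without and at 22.76, 31.36 and 34.23 FPKM with the drug. Dcn stood at 0.04 (SE 0.373), Postn at -0.08 (SE 0.571), Col1a2 at -0.10 (SE 0.273), Col1a1 at -0.16 (SE 0.346), Col3a1 at -0.20 (SE 0.293), Col5a1 at -0.47 (SE 0.229) and Thbs1 at -0.58 (SE 0.288).

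At D6, fits without the replicate block called 0 of 10 members in edgeR and 0 in DESeq2, with 0 at an unadjusted p under 0.05. Of the 16301 tested genes 0% was called (222 at an unadjusted p under 0.05, and 1 by DESeq2). With that block Col3a1 passed, as given below. Dcn, the member that had risen most by this day, stood at 4.85, 6.48 and 7.34 FPKM without GSKJ4 and at 4.09, 5.73 and 7.59 FPKM with it (-0.11, SE 0.219). Col3a1 stood at 2.75, 6.53 and 7.15 FPKM without and at 2.06, 4.62 and 4.22 FPKM with GSKJ4. Each treated library was below the untreated library of its number, while the groups overlapped (-0.60, SE 0.383, edgeR adjusted p = 1.0). At D6 the same-numbered libraries deviated together, with correlations over genes of 0.754, 0.429 and 0.571. With the replicate number as a block, Col3a1 passed at -0.58 (SE 0.074, edgeR adjusted p = 0.00013), 1 of 10 members, in a fit that called 257 genes in all against 0 without the block. Twist1, also lower in each of the 3 numbered pairs (2.71, 7.91 and 6.86 FPKM without, 1.74, 5.94 and 4.13 FPKM with), had an adjusted p of 0.0692 in that fit. The other members lay between -0.47 for Lum (SE 0.642) and 0.01 for Col1a1 (SE 0.701) without the block.

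**Figure D5:**
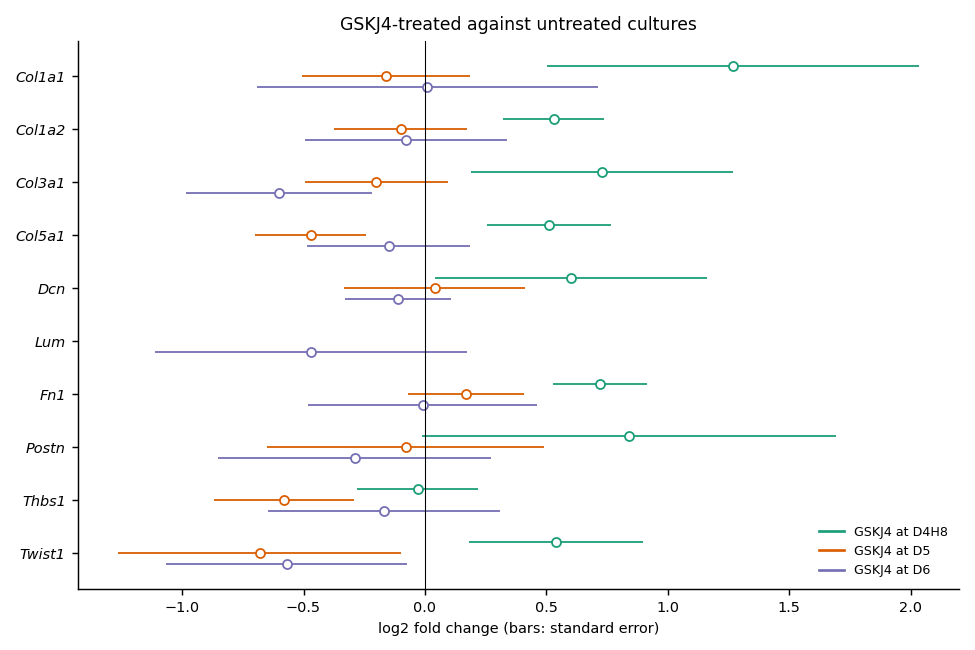
Log2 fold changes of GSKJ4-treated against untreated cultures (x axis) for the 10 members (y axis) at D4H8, D5 and D6. Bars are standard errors. All points are open because none passed an edgeR adjusted p of 0.05 in these fits without the replicate block. Lum was tested at D6 only, and 8 of the 9 D4H8 points lie above 0.

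The difference in the GSKJ4 effect between stages was tested in 18 libraries, without the replicate block. For D5 minus D4H8, 0 of 10 members were called in edgeR, 1 had an unadjusted p under 0.05 (Col5a1, -0.99, SE 0.438, adjusted p = 0.46), and 0.249% of 18103 tested genes were called. For D6 minus D4H8, 0 of 10 were called, 0 were under an unadjusted 0.05, and 0.735% of genes were called. All 10 differences were below 0 in each of these comparisons (ranges -1.90 to -0.56 and -2.45 to -0.13), which share the D4H8 libraries. The members' medians were -0.94 and -0.92, beside -0.06 and 0.0 over all tested genes. Several members varied together across libraries (16 of 45 pairs with r over 0.5), so the shared sign is not 10 separate results. For D6 minus D5, 0 of 10 members and 0% of genes were called in edgeR (0 members and 358 genes at an unadjusted p under 0.05), with members between -0.55 and 0.43. DESeq2 called 0 members in each of the 3.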

How the data were processed

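Poly-A RNA of 21 libraries was sequenced by the authors, who trimmed reads with Fastp, aligned them to mm10 with Hisat2 and counted them with HTSeq-count on Ensembl gene models. The authors' deposited table of raw counts and their deposited table of FPKM hold the same 55400 genes and 21 columns, and 0 columns were left unused. Recomputing FPKM from counts gave the deposited values to within 0.005. GENCODE M21 (GRCm38) supplied symbols, coordinates and strands, with 55140 identifiers matched and 260 not.

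The 10 members and 17 lists (168 genes) were chosen with earlier results of these data known. All 10 members were named in every comparison. From each list, the genes named were those past the test, at most 4 by mean FPKM unless a count of 5 or fewer was spelled out, and markers under 1 FPKM. For likeness, genes were named from the 10 with the highest Pearson r, and 1 gene for each member. Some genes that these rules select are not reported here.

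Differential expression was tested with edgeR 4.0.16 in R 4.3.3 (quasi-likelihood test, TMM scaling, filterByExpr at a minimum count of 10, Benjamini-Hochberg adjustment over all tested genes). Stages were compared in the 12 untreated libraries, GSKJ4 in the 6 libraries of each stage, and differences between stages in 18. Alternatives were DESeq2 1.42.0, upper-quartile or RLE scaling, no filter, the replicate number as a block, all 21 libraries in one fit, and leaving out each library. Log2 CPM used a prior count of 2. The variance of log2 CPM was split into sums of squares for group and replicate number. Analyses also used Python 3.11.15 with pandas 2.3.3, numpy 2.4.6, scipy 1.17.1 and matplotlib 3.10.9. The pipeline was tested on simulated data.

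Depth ran from 14982115 to 34383842 counts per library, and intervals cover counting error only. Same-numbered treated and untreated libraries were checked for pairing by the correlation of their deviations from the group means over genes. These were 0.754, 0.429 and 0.571 at D6, all over 0.1, so that the numbers were taken to pair the D6 libraries. At D4H8 (0.491, 0.0899 and 0.299) and at D5 (0.254, 0.0589 and 0.231) they were not.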

Additional observations from a re-analysis of the deposited data

How the results depend on the processing

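The 3 rises from D4 to D6 (Dcn, Col3a1 and Twist1) kept their direction and their call under DESeq2, upper-quartile and RLE scaling, no filter, the replicate block, the fit over all 21 libraries and every refit that left out 1 library (3 to 4 members called). For D5 against D4H8, where 1 member was called, no filter gave 3 (Dcn, Col1a1 and Col3a1), the fit over 21 libraries 0 and leaving out a library 0 to 1. For D6 against D5, with 2 called, no filter gave 4, the fit over 21 libraries 1 and leaving out a library 1 to 3. For GSKJ4 at D4H8, with 0 called, DESeq2 gave 1 (Fn1), no filter 2 (Fn1 and Col1a1) and leaving out a library 0 to 2. The replicate block gave 2 there, Fn1 at 0.72 (adjusted p = 0.0426) and Col1a1 at 1.51 (adjusted p = 0.00099), although the numbers did not pair these libraries by the check. At D6 the block gave 1 (Col3a1) against 0 without it, and it changed no other member's call. For the difference in GSKJ4 effect, no filter gave 1 member at D5 minus D4H8 and 2 at D6 minus D4H8 against 0. The cause of these differences was not tested. The group means of the members' summed CPM moved by less than 1 SD under TMM library sizes. Without 1 replicate the mean ran from 375.9 to 580.0 CPM at D6 and from 309.8 to 557.8 CPM at D6 GSKJ4. With 3 libraries in a group such a shift cannot reach 1 SD, so its size in SDs decides nothing.

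Counts over all genes moved more. D4H8 against D4 called 767, but 1319 with no filter and 422 in the fit over 21 libraries, and D5 against D4H8 called 4861 against 3218 in that fit. GSKJ4 at D4H8 called 644, but 1965 with DESeq2, 2287 with no filter, 2048 over 21 libraries, 2274 with the block and 43 to 1746 without a library. At D5 it called 1, but 69, 128, 9 and 4 in the first 4 of these, and at D6 0, but 1 with DESeq2 and 257 with the block. The differences called 45, 133 and 0, but 238, 582 and 1 with DESeq2, 351, 626 and 13 with no filter, and 185, 491 and 0 with the block.

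Values near 0 changed sign. Col3a1 at D4H8 against D4 (-0.004) was 0.004 with DESeq2, 0.001 with RLE scaling, 0.01 with no filter, 0.01 over 21 libraries and 0.15 with the block. Postn at D6 against D5 was -0.16 with the block. Under GSKJ4 at D6, Col1a1 was -0.001 over 21 libraries and -0.03 with the block, and Fn1 was 0.001 with upper-quartile scaling. Leaving out a library turned the sign of uncalled log2 changes, over these ranges. At D4H8 against D4, Col1a1 ran from -1.71 to 0.97, Col1a2 from -0.14 to 0.06, Col3a1 from -0.46 to 0.82, Fn1 from -0.09 to 0.36 and Twist1 from -0.41 to 0.11. At D5 against D4H8, Col1a2 ran from -0.11 to 0.45 and Lum from -0.06 to 1.92. At D6 against D5, Col1a1 ran from -0.94 to 0.24, Fn1 from -0.39 to 0.26 and Postn from -0.22 to 0.45. At D6 against D4, Col1a1 ran from -0.59 to 1.51, Lum from -0.43 to 0.67 and Postn from -0.35 to 0.63. Under GSKJ4 at D4H8, Col3a1 ran from -0.0007 to 1.17 and Thbs1 from -0.27 to 0.16. Under GSKJ4 at D5, Col1a1 ran from -0.49 to 0.15, Col1a2 from -0.30 to 0.31, Col3a1 from -0.42 to 0.08, Dcn from -0.16 to 0.20, Fn1 from -0.06 to 0.38 and Postn from -0.62 to 0.26. Under GSKJ4 at D6, Col1a1 ran from -0.96 to 0.83, Col1a2 from -0.68 to 0.26, Col5a1 from -0.59 to 0.12, Dcn from -0.33 to 0.07, Fn1 from -0.58 to 0.36, Postn from -1.09 to 0.06 and Thbs1 from -0.94 to 0.13. Lum had 3 counts or fewer in 6 libraries.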
